A study of Mus musculus with 6 samples.

Results

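The 9 genes described here encode subunits of the AMP-activated protein kinase (AMPK) and proteins that switch it on, and they were taken from the deposited gene count table by name. They are Prkaa1, Prkaa2, Prkab1, Prkab2, Prkag1, Prkag2, Stk11, Cab39 and Camkk2, which is 9 of the 54532 genes in the table. All 9 had enough counts to be among the 14774 genes tested.

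The values are read counts from poly-A selected RNA of the left ventricle of 3 HINT2-transgenic (TG) and 3 non-transgenic (NTG) male mice, with 1 library per heart. All 6 hearts were taken 4 weeks after aortic banding (AB), a surgical narrowing of the aorta that loads the ventricle with pressure, in mice operated on at 8 to 10 weeks of age. TG mice, with the labelled genotype HINT2CTG-Myh6Cre, carry a HINT2 transgene under a CAG promoter that Cre switches on in cardiomyocytes after tamoxifen, and NTG mice are labelled C57BL/6J. The label of NTG mice names no Cre, and tamoxifen treatment of NTG mice is not given in the sources used here, so effects of HINT2, of Cre and of tamoxifen cannot be told apart in this comparison. No sham-operated heart is in the count table, and the comparison is therefore between banded hearts only.

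AMPK is a sensor of cellular energy that is made of a catalytic alpha subunit, a beta subunit that holds the complex together and binds glycogen, and a gamma subunit that binds AMP, ADP and ATP. When ATP falls, the kinase is phosphorylated on its activation loop, mainly by LKB1, which works in a complex with a STRAD pseudokinase and the scaffold MO25, while CaMKK2 does so in response to calcium. In the heart, active AMPK phosphorylates acetyl-CoA carboxylase and so favours fatty acid oxidation, and it promotes glucose uptake and glycolysis. Its activity is set by nucleotides and phosphorylation, and transcript counts measure neither of these.

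Of the 9 genes, Prkab2, which encodes the beta2 isoform of the scaffold subunit, differed most between the groups and was lower in TG hearts. Its level in CPM, read counts scaled to library size by the TMM method, was 92.6, 182 and 157 in NTG 1, NTG 2 and NTG 3, and 67.7, 88.3 and 70.6 in TG 1, TG 2 and TG 3. The groups did not overlap, but the gap between NTG 1 and TG 2 was narrow, and NTG 1 lay nearer to the TG libraries than to NTG 2 and NTG 3. The means were 144 ± 46.4 CPM (SD, n = 3) in NTG hearts and 75.5 ± 11.2 CPM (SD, n = 3) in TG hearts, so that NTG hearts held 1.91 times the level of TG hearts in the fit. The log2 fold change was −0.93 (standard error 0.25, 95% interval −1.52 to −0.35), with an unadjusted p of 0.00677 and an adjusted p of 0.196 from edgeR's quasi-likelihood test. Adjusted values follow Benjamini and Hochberg over all 14774 genes, and to be called a gene needed an adjusted p under 0.05 together with a log2 fold change over 0.5 in size.

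By this rule edgeR called 0 of the 9 genes, as it did for 0% of all genes tested. Without the filter on low counts it called 232 of 26858 genes, and still 0 of the 9. An unadjusted p under 0.05 was reached by 1 of the 9, which was lower in TG, beside 18.6% of all genes, of which 9.76% were lower and 8.83% higher. DESeq2, the tool of the study's own methods, called 1 of the 9, beside 3.95% of all genes (2.4% lower and 1.54% higher), and limma-voom called 0 of the 9 and 0% of all genes. The gene called by DESeq2 was Prkab2, at −0.93 on the log2 scale (adjusted p = 0.0108, DESeq2). Over 19 alternatives its log2 fold change lay between −1.17 and −0.73, with adjusted p from 2.00e-09 to 0.443. Among all genes tested, 6% had a larger change in size than Prkab2 in edgeR's fit, and 505 genes had a smaller p.

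The library labelled NTG 1 bears on this result. Mouse Hint2, the targeted gene, had 12 counts in NTG 1, against 545 and 559 counts in NTG 2 and NTG 3 and 793, 828 and 859 counts in TG 1, TG 2 and TG 3, so that the library labelled NTG 1 stands apart from its group and goes against its label, which is in doubt. It was kept in all NTG means given here. The log2 fold change of Hint2 was 1.33 (adjusted p = 0.434, edgeR), and 0.77 without NTG 1 (adjusted p = 0.0212, edgeR). Over all genes, the chi-square per gene between the counts of NTG 1 and another library was 17.8 for TG 2, 21.4 for TG 1 and 28.1 for TG 3, below the 33.0 for NTG 3 and 71.2 for NTG 2, where a smaller value means more alike. Genes with many counts weigh most in this measure. Reads of the transgene enter this count only as far as they align to the mouse gene, and the species of its sequence is not given in the sources used here. Without NTG 1, Prkab2 stood at −1.17 on the log2 scale (SE 0.14, adjusted p = 0.0149, edgeR), and 5.52% of all genes were then called, 2.85% as lower. With DESeq2, the adjusted p of Prkab2 stayed under 0.05 without NTG 1 and without TG 2, at 2.00e-09 and 0.00894. It rose to 0.155 without NTG 2, 0.156 without NTG 3, 0.153 without TG 1 and 0.151 without TG 3. These DESeq2 fits with a library left out were chosen after seeing the data.

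**Figure D1:**
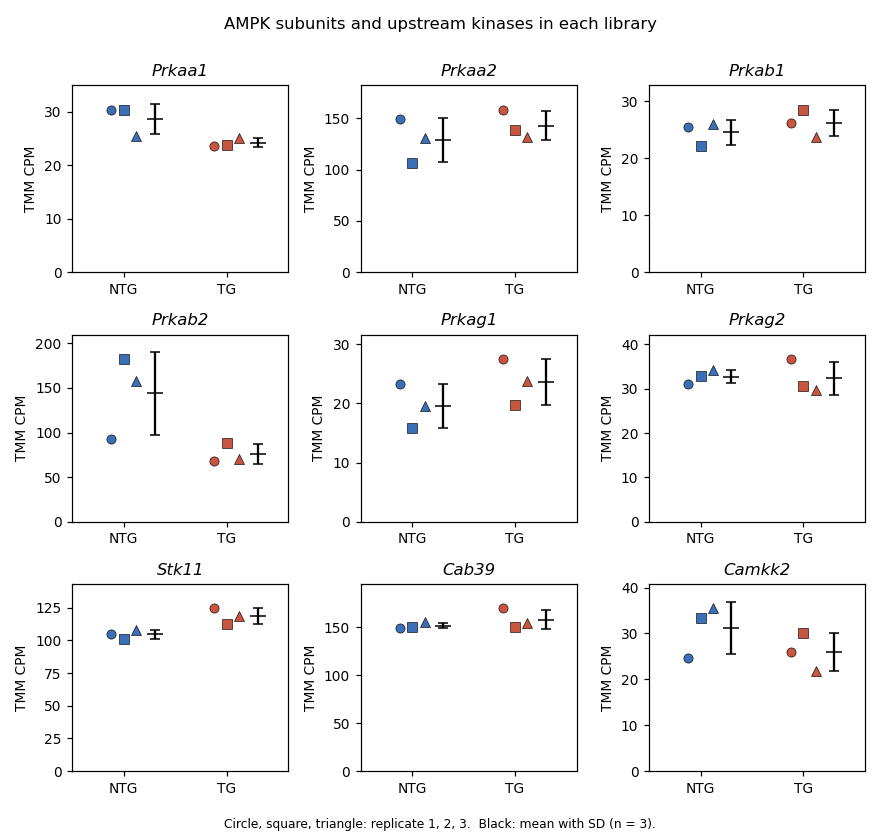
TMM-scaled CPM of the 9 genes in each library, with NTG in blue and TG in red, the symbol giving the replicate number and the black bar the mean with SD of 3 libraries; each vertical axis starts at 0. Prkab2 ran from 92.6 to 182 CPM in NTG and from 67.7 to 88.3 CPM in TG, while most other genes overlapped between the groups.

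Prkab2 (ENSMUSG00000038205) is at chr3:97658193-97673812 on the plus strand and its paralog Prkab1 (ENSMUSG00000029513) at chr5:116013586-116024508 on the minus strand, on GRCm38 like all positions given here. Since Prkab2 had the largest fitted change of the 9 and Prkab1 is its paralog, a choice made after their values were seen, the RefSeq promoter windows of this pair (GRCm38.p6, 250 bases before to 50 after the annotated start) are shown 5′ to 3′ on the gene's strand, with each GC box (GGGCGG or its reverse complement on the other strand) in capitals. The Prkab2 window is chr3:97657962-97658261 and the Prkab1 window is chr5:116024379-116024678.
Prkab2: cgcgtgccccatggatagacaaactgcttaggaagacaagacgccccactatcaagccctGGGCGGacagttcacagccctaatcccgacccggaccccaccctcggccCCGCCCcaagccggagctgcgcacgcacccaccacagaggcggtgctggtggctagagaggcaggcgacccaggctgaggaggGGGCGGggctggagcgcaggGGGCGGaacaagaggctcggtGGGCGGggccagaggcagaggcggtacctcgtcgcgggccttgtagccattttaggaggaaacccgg
Prkab1: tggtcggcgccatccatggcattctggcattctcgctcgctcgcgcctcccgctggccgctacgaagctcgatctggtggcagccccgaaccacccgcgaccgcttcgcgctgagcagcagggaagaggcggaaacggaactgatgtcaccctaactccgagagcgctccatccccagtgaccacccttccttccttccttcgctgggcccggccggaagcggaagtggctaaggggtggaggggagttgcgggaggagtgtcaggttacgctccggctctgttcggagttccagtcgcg

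The Prkab2 window holds 5 GC boxes, none overlapping another, and the Prkab1 window holds 0. Prkaa1 also has 5, and 9 of the 11 windows of the 9 genes hold at least 1. A GC box is found in 35.7% of the 32851 RefSeq promoter windows of this length. Both windows are rich in GC, with 68% and 65.3% against a median of 52.7% over all windows, and hold 23 and 30 CpG sites. Of the other motifs searched on both strands, CCAAT (37.4% of all windows), CANNTG (72.3%), TATAAA (13.6%), AGGTCA (16.3%) and the MEF2 motif with any bases between its CTA and TAG ends (3.69%) had 0 matches in either window. All 9 genes matched a RefSeq promoter entry, with 11 windows in all, since Prkag2 has 3 start sites listed. TATAAA and the MEF2 motif were in none of the 11, and AGGTCA was in 1, a window of Prkag2 that starts at 24995704 on chromosome 5. A match is a description of letters and was not related to the counts.

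Prkab1, the beta1 isoform, measured 25.5, 22.1 and 26.0 CPM in NTG 1, NTG 2 and NTG 3, and 26.3, 28.5 and 23.8 CPM in TG 1, TG 2 and TG 3. The groups overlapped, and the log2 fold change was 0.095 (95% interval −0.17 to 0.36, adjusted p = 0.682, edgeR), an interval that leaves room for small changes in either direction. It was 0.023 without NTG 2, 0.029 without TG 2 and 0.16 without TG 3.

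The ratio within a library does not depend on scaling between libraries, so the beta2 share was computed per library as Prkab2 counts per kb of gene length over the sum of both genes. It was 68.6%, 83.2% and 78.4% in NTG 1, NTG 2 and NTG 3, and 60.8%, 65.1% and 64.1% in TG 1, TG 2 and TG 3. Every TG library lay below every NTG library, and beta2 remained the larger part in each heart. The mean share was 76.8% ± 7.48 (SD, n = 3) in NTG and 63.3% ± 2.23 (SD, n = 3) in TG, a difference of −13.5 percentage points (two-sided p = 0.1 by an exact permutation test, and 3 against 3 cannot give a lower one). With each library left out in turn the difference lay between −17.5 and −10.2 points. Gene length here is the union of annotated exons, as deposited, and isoform use was not measured. Without division by length the difference was −10.3 points.

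**Figure D2:**
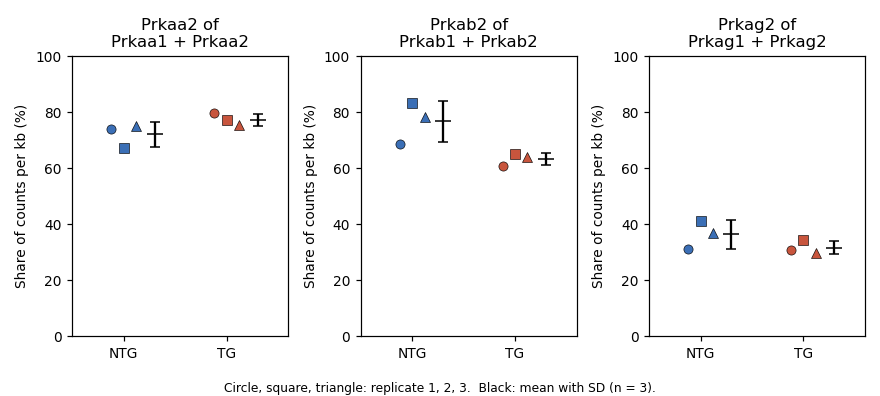
Share of the alpha2, beta2 and gamma2 gene in the counts per kb of its pair, in percent, for each library, with the mean and SD of 3 libraries in black. The beta2 share was 68.6% to 83.2% in NTG and 60.8% to 65.1% in TG; the gamma2 shares of the groups overlapped, and the alpha2 shares came within 1 point of each other.

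The catalytic subunits were led by Prkaa2, the alpha2 isoform typical of muscle, which is at chr4:105029874-105109890 on the minus strand (ENSMUSG00000028518). It measured 149, 106 and 131 CPM in NTG 1, NTG 2 and NTG 3, and 158, 138 and 132 CPM in TG 1, TG 2 and TG 3. NTG 2 was lowest, NTG 1 lay above both TG 2 and TG 3, and the groups overlapped. The log2 fold change was 0.15 (95% interval −0.17 to 0.47, adjusted p = 0.578, edgeR). It was 0.028 without NTG 2, 0.068 without TG 1 and 0.27 without NTG 1.

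Prkaa1, the alpha1 isoform found in many cell types, is at chr15:5143861-5181899 on the plus strand (ENSMUSG00000050697). It measured 30.2, 30.4 and 25.4 CPM in NTG 1, NTG 2 and NTG 3, and 23.7, 23.9 and 25.1 CPM in TG 1, TG 2 and TG 3. The groups did not overlap, with NTG 3 just above TG 3. For Prkaa1 the log2 fold change was −0.24 (95% interval −0.49 to 0.0067, unadjusted p = 0.0551, adjusted p = 0.277, edgeR).

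As a share of alpha subunit counts per kb, alpha2 was 74.2%, 67.1% and 75.0% in NTG 1, NTG 2 and NTG 3, and 79.6%, 77.2% and 75.4% in TG 1, TG 2 and TG 3. The groups did not overlap, but NTG 3 and TG 3 were nearly equal. The means were 72.1% ± 4.35 (SD, n = 3) in NTG and 77.4% ± 2.13 (SD, n = 3) in TG, a difference of 5.27 points (two-sided p = 0.1 by an exact permutation test, again the lowest value possible), which fell to 2.77 points without NTG 2.

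The gamma subunits carry the nucleotide-binding sites, and neither of their genes was called. Prkag1, the widely expressed gamma1 isoform, is at chr15:98812797-98831521 on the minus strand (ENSMUSG00000067713). Its level was 23.2, 15.8 and 19.5 CPM in NTG 1, NTG 2 and NTG 3, and 27.5, 19.7 and 23.8 CPM in TG 1, TG 2 and TG 3, so the groups overlapped. TG was 0.28 higher on the log2 scale in the fit (95% interval −0.13 to 0.69, adjusted p = 0.413, edgeR). The value depended on the library left out, from 0.14 without NTG 2 to 0.42 without NTG 1 (adjusted p = 0.772 and 0.166, edgeR), with 0.16 without TG 1. Without NTG 1 the groups did not overlap and the unadjusted p was 0.0411 (edgeR).

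Prkag2, the gamma2 isoform whose mutations cause an inherited cardiomyopathy with glycogen storage, is at chr5:24862744-25100642 on the minus strand (ENSMUSG00000028944). Its level was 31.1, 32.9 and 34.2 CPM in NTG 1, NTG 2 and NTG 3, and 36.7, 30.5 and 29.8 CPM in TG 1, TG 2 and TG 3. All NTG values lay within the range of TG, and the log2 fold change was −0.020 (95% interval −0.27 to 0.23, adjusted p = 0.939, edgeR). Both gamma genes overlap antisense genes, Prkag1 by 950 of its 2175 exon bases with B130046B21Rik and Prkag2 by 795 of 6480 with Prkag2os2, and their reads cannot be assigned with certainty there either. The antisense genes were counted at no more than 2.31% of the Prkag1 counts and 1.38% of the Prkag2 counts. How many reads in the shared bases were counted for neither gene is not known, and values per kb use the full exon length.

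The gamma2 share of gamma counts per kb was 31.0%, 41.2% and 37.1% in NTG 1, NTG 2 and NTG 3, and 31.0%, 34.2% and 29.6% in TG 1, TG 2 and TG 3. The groups overlapped through NTG 1, with a difference of −4.83 points (two-sided p = 0.2 by an exact permutation test, which cannot go under 0.1 here). It was −7.53 points without NTG 1 and −2.45 points without NTG 2. The skeletal muscle isoform gene Prkag3, which is not among the 9, measured 1.86 to 4.57 CPM in NTG and 3.10 to 4.51 CPM in TG.

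Of the upstream genes, Stk11, which encodes LKB1, is at chr10:80115803-80130682 on the plus strand (ENSMUSG00000003068). It measured 105, 101 and 108 CPM in NTG 1, NTG 2 and NTG 3, and 125, 113 and 119 CPM in TG 1, TG 2 and TG 3. Every TG library lay above every NTG library, and the spread within each group was small. The log2 fold change was 0.18 (95% interval −0.020 to 0.38, unadjusted p = 0.0722, adjusted p = 0.304, edgeR), or 0.094 with scaling by library size alone. Exons of Stk11 share 232 bases with those of Cbarp on the opposite strand, and since no strand marking is named for the libraries, reads there cannot be assigned with certainty. Cbarp was counted at no more than 6.51% of the Stk11 counts in any library.

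Cab39, the MO25 scaffold that stabilises LKB1 and is itself no kinase, is at chr1:85793441-85851576 on the plus strand (ENSMUSG00000036707). It was the steadiest of the 9 in NTG hearts, at 150, 151 and 155 CPM in NTG 1, NTG 2 and NTG 3, and measured 170, 150 and 154 CPM in TG 1, TG 2 and TG 3. TG 1 was highest and the other libraries overlapped. Its log2 fold change was 0.057 (95% interval −0.15 to 0.27, adjusted p = 0.759, edgeR), and its sign turned with scaling by library size alone, at −0.029. Without TG 1 it was 0.0008, and without TG 2 it was 0.092.

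Camkk2, the calcium-dependent kinase of AMPK, is at chr5:122731170-122779409 on the minus strand (ENSMUSG00000029471). It measured 24.7, 33.3 and 35.5 CPM in NTG 1, NTG 2 and NTG 3, and 26.0, 30.1 and 21.9 CPM in TG 1, TG 2 and TG 3. NTG 1 lay with the TG libraries, and the groups overlapped only through it. Its log2 fold change was −0.26 (95% interval −0.65 to 0.13, adjusted p = 0.418, edgeR), and −0.41 without NTG 1 (unadjusted p = 0.0216, adjusted p = 0.118, edgeR). It was smaller in size without NTG 3, at −0.16, and without TG 3, at −0.15.

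**Figure D3:**
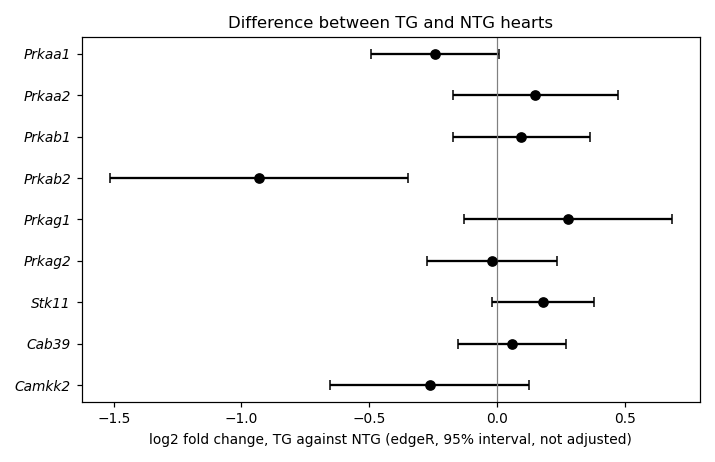
edgeR log2 fold change of TG against NTG for the 9 genes, with 95% intervals that are not adjusted for the number of genes; the vertical line marks no difference. The interval of Prkab2, −1.52 to −0.35, lies below 0, and the other 8 intervals include 0.

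Counted over the 9 genes, fitted levels were higher in TG for 5 and lower for 4, with a median log2 fold change of 0.058, against −0.0081 over all genes tested, of which 48.7% were fitted higher. The groups did not overlap for 3 of the 9 (Stk11 higher, Prkaa1 and Prkab2 lower), beside 23.5% of all genes (11.2% higher and 12.3% lower). Without NTG 1 they did not overlap for 6, which were Prkaa2, Prkag1 and Stk11 above and Prkaa1, Prkab2 and Camkk2 below, beside 47% of all genes. An unadjusted p under 0.05 was then reached by Prkab2 and Camkk2, both lower, and by Prkag1, higher, where 27% of all genes reached it (13.3% lower and 13.7% higher). In that fit 1 of the 9, Prkab2, was called, beside 5.52% of all genes (2.85% lower).

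Compared per length, as CPM per kb, the mean over the 6 libraries was highest for Stk11 at 24.4, followed by Cab39 at 21.9, Prkab2 at 21.5, Prkaa2 at 17.0, Prkag1 at 9.92, Prkab1 at 8.28, Prkaa1 at 5.68, Prkag2 at 5.03 and Camkk2 at 2.62. The ranges over the libraries were apart between Prkaa2 and Prkag1, between Prkab1 and Prkaa1, and between Prkag2 and Camkk2. The other neighbours in this order overlapped, and Prkab2 stood above Cab39 in 2 of 6 libraries, NTG 2 and NTG 3, and above Prkaa2 in 2 of 6. In TG hearts Prkab2, at 14.8 ± 2.20 CPM per kb (SD, n = 3), was under Prkaa2 at 17.9 ± 1.74 (SD, n = 3), while in NTG hearts it was 28.3 ± 9.10 against 16.1 ± 2.69 (SD, n = 3), the highest NTG mean of the 9, above Stk11 at 22.9 ± 0.768 (SD, n = 3).

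Summed by subunit, the beta genes were at 26.5, 43.0 and 39.4 CPM per kb in NTG 1, NTG 2 and NTG 3, and at 21.8, 26.6 and 21.6 CPM per kb in TG 1, TG 2 and TG 3. The alpha sum was 22.3 ± 2.69 in NTG and 23.1 ± 1.61 CPM per kb in TG, and the gamma sum 14.0 ± 1.58 and 15.9 ± 2.29 (SD, n = 3 each). The ratio of beta to alpha transcripts per kb was therefore 1.05, 2.17 and 1.80 in NTG 1, NTG 2 and NTG 3, and 0.876, 1.19 and 0.987 in TG 1, TG 2 and TG 3. NTG 1 lay within the range of TG for this ratio, and the ratio of gamma to alpha stayed between 0.612 and 0.734 in all 6 hearts.

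The depth behind these values was enough for each of the 9 genes to be read in every heart. Total counts were 14863568 to 17581220 in NTG and 14944465 to 17235802 in TG. The lowest count of any of the 9 was 297, for Prkag1 in NTG 2, and the highest 3435, for Prkab2 in NTG 2. Counting alone gives Prkab2 a spread of 2.11% in NTG and 2.92% in TG, against a measured coefficient of variation of 32.2% and 14.8%. With 1 library per heart, variation between hearts, dissection and library preparation cannot be told apart. For Cab39 in NTG, the measured spread of 1.93% was at the counting error of 1.98%.

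Markers of cell types moved with the groups too, and in whole tissue fewer cells of a type and less RNA per cell cannot be told apart. Cardiomyocyte markers were high in every library, summing to 18354.1 to 31137.9 CPM in NTG and 29784.1 to 36984.9 CPM in TG, with all 7 fitted higher in TG and 2 of them at an unadjusted p under 0.05. The 3 atrial markers Myl7, Sln and Myl4 summed to 2.2, 2.2 and 67.4 CPM in NTG 2, NTG 3 and NTG 1, and to 4.5, 29.2 and 167 CPM in TG 1, TG 2 and TG 3, so that some libraries held atrial transcripts and their order was not that of Prkab2. The 4 fibroblast markers summed to 1973.7, 3029.4 and 2341.3 CPM in NTG 1, NTG 2 and NTG 3, and to 1252.6, 1788.5 and 1261.0 CPM in TG 1, TG 2 and TG 3. All 4 had a fitted level lower in TG, 3 of them at an unadjusted p under 0.05.

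For Prkab2 and for the fibroblast, erythroid and macrophage sums alike, NTG 2 was highest and NTG 3 next. Of the TG libraries, TG 2 was highest for Prkab2 and the fibroblast sum, TG 1 for the erythroid sum and TG 3 for the macrophage sum. The cardiomyocyte sum ran the other way, being lowest in NTG 2 within NTG and in TG 2 within TG. The erythroid markers summed to 1309.9 to 2245.2 CPM in NTG and 762.0 to 907.5 CPM in TG. All 5 were fitted lower in TG, each at an unadjusted p under 0.05 (edgeR). The 4 macrophage markers summed to 273.7 to 523.4 CPM in NTG and 216.7 to 306.0 CPM in TG, so that the groups overlapped. All 4 were fitted lower in TG and none was at 0, with 2 at an unadjusted p under 0.05 (edgeR). Of all genes tested, 18.6% reached this p. The endothelial sum overlapped, at 1309.2 to 1524.2 CPM and 1403.9 to 1548.8 CPM, as did that of smooth muscle and pericytes, most of which was Rgs5. Of the latter 4 markers, 2 were higher in TG at an unadjusted p under 0.05, and Acta2, at 83.5 to 88.6 CPM in NTG and 113.5 to 120.0 CPM in TG, and Myh11, at 38.8 to 61.7 and 78.7 to 93.0 CPM, did not overlap. The 4 lymphocyte and 3 adipocyte markers had too few counts to be tested. Genes of the mitochondrial genome took 19.2%, 13.4% and 14.3% of the counts in NTG 1, NTG 2 and NTG 3, and 21.5%, 16.0% and 20.3% in TG 1, TG 2 and TG 3, so that the share was lowest in NTG 2, where Prkab2 was highest, and highest in TG 1, where Prkab2 was lowest. The first principal component, with 52.3% of the variance, was at −5.08, 55.7 and 29.3 in NTG 1, NTG 2 and NTG 3, and at −32.7, −10.7 and −36.5 in TG 1, TG 2 and TG 3. Like Prkab2, it put NTG 2 first, then NTG 3, NTG 1 and TG 2. The part of these markers, of the mitochondrial share and of this component in the result for Prkab2 was not tested.

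**Figure D4:**
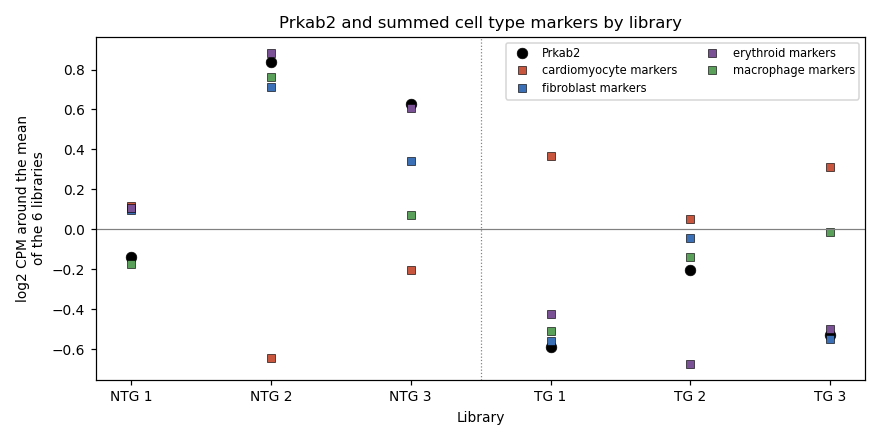
Level of Prkab2 (black) and summed CPM of 4 marker lists in each library, as log2 values around the mean of the 6 libraries, so that 0 is the average library. Prkab2 was highest in NTG 2 (182 CPM), where the fibroblast (3029.4 CPM), erythroid (2245.2 CPM) and macrophage (523.4 CPM) sums were also highest. The cardiomyocyte sum was lowest there (18354.1 CPM).

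The genes nearest to Prkab2 in pattern were sought after its values had been seen, by the root mean square difference of log2 CPM centred on each gene over the 6 libraries. They were Calcrl, which encodes the calcitonin receptor-like receptor, at 0.052, Cyp7b1, an oxysterol hydroxylase, at 0.054, and Actn1, a non-muscle alpha-actinin, at 0.062, where the median gene was at 0.58. Cyp7b1 had a low level, at 1.09 to 2.55 CPM in NTG and 0.793 to 1.08 CPM in TG. Such genes were picked as the closest of all genes tested, so small differences follow from the choice. For Stk11, the highest of the 9 per length, the nearest genes were Zbtb7a at 0.019, Ncaph2 at 0.021 and Iqsec2 at 0.024, against a median of 0.23. Among the other 8 genes, Cab39 was the nearest to Stk11 at 0.068 and Prkab2 the farthest at 0.63.

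The other genes of the pathway were described by 3 lists. The regulators are 17 genes for the other LKB1 partners, kinases and phosphatases of AMPK and its lysosomal and sestrin regulators, and all were tested. Fitted levels were higher in TG for 9 and lower for 8, with a median log2 fold change of 0.058. There was 1 higher and 1 lower with an unadjusted p under 0.05, where all genes had 18.6%, and edgeR and DESeq2 each called 0, beside 0% and 3.95% of all genes.

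Flcn, the folliculin gene whose product restrains AMPK signalling at the lysosome, had 37.8, 34.6 and 33.8 CPM in NTG 1, NTG 2 and NTG 3, and 43.5, 45.6 and 43.6 CPM in TG 1, TG 2 and TG 3. The groups were apart, with a log2 fold change of 0.32 (SE 0.088, unadjusted p = 0.00642, adjusted p = 0.196, edgeR). Cab39l, the second MO25 gene, was at 27.0, 31.4 and 28.3 CPM in NTG and 23.5, 25.9 and 21.2 CPM in TG, with a log2 fold change of −0.30 (unadjusted p = 0.0323, adjusted p = 0.231, edgeR). The phosphatase gene Ppm1e, next by p, had a log2 fold change of −0.23 (adjusted p = 0.356, edgeR), or −0.15 without TG 2.

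The substrates are 23 genes for proteins that AMPK phosphorylates, of which 14 had higher and 9 lower fitted levels in TG, with a median log2 fold change of 0.13. Of these, 3 higher and 1 lower had an unadjusted p under 0.05, again beside 18.6% of all genes. DESeq2 called 1 of them, beside 3.95% of all genes, which for 23 genes is about the same share, and edgeR called 0. The acetyl-CoA carboxylase genes went opposite ways in the fit. Acacb encodes the isoform at the mitochondrial surface whose product, malonyl-CoA, limits fatty acid entry, and Acaca the cytosolic isoform of fatty acid synthesis.

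Acacb measured 214, 149 and 194 CPM in NTG 1, NTG 2 and NTG 3, and 293, 251 and 278 CPM in TG 1, TG 2 and TG 3. Its groups were apart, and it was the substrate gene called by DESeq2, at 0.57 on the log2 scale (SE 0.17, adjusted p = 0.0239, DESeq2), against 0.56 (SE 0.15, adjusted p = 0.196) with edgeR. DESeq2's call held without NTG 1 or TG 2 and was lost without NTG 2, NTG 3, TG 1 or TG 3, at an adjusted p of 0.0766, 0.137, 0.262 and 0.211. Without the low-count filter, edgeR called Acacb at an adjusted p of 0.0395. Acaca measured 17.1, 22.3 and 21.2 CPM in NTG 1, NTG 2 and NTG 3, and 14.9, 15.7 and 14.1 CPM in TG 1, TG 2 and TG 3, at −0.44 on the log2 scale (SE 0.13, adjusted p = 0.203 by edgeR but 0.128 by DESeq2). Its groups were apart as well, with NTG 1 again nearest to the TG libraries. Without NTG 1, where 5.52% of all genes were called, edgeR gave Acacb an adjusted p of 0.0399 and Acaca one of 0.0445. With any other library left out, these were 0.166 to 0.441 for Acacb and 0.199 to 0.471 for Acaca (edgeR).

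Hdac5, a histone deacetylase that represses hypertrophic genes, had a log2 fold change of 0.35 (adjusted p = 0.196, edgeR). Chosen after the values were seen, Pfkfb2, which drives glycolysis in the heart, had 0.51 (unadjusted p = 0.0226, adjusted p = 0.217, edgeR), or 0.33 without NTG 2. Ppargc1a, the mitochondrial coactivator PGC-1alpha and also named after its values were seen, had the largest fitted change of the 23 at 1.17. It measured 94.4, 26.8 and 29.5 CPM in NTG 1, NTG 2 and NTG 3, and 150, 95.1 and 93.2 CPM in TG 1, TG 2 and TG 3, so that NTG 1 lay among the TG libraries (unadjusted p = 0.0573, adjusted p = 0.282, edgeR). Without NTG 1 it was 2.0 (adjusted p = 0.0204, edgeR), and with any other library left out 0.87 to 1.29 (adjusted p = 0.327 to 0.649, edgeR).

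The AMPK-related kinases, which LKB1 also activates, are 12 genes, of which 11 were tested and Brsk2 had too few counts. Fitted levels were higher in TG for 4 and lower for 7, with a median log2 fold change of −0.025, and neither edgeR nor DESeq2 called any, beside 0% and 3.95% of all genes. An unadjusted p under 0.05 was reached by 1 of the 11, beside 18.6% of all genes. Sik3, a salt-inducible kinase, was at 83.7, 80.2 and 89.8 CPM in NTG 1, NTG 2 and NTG 3, and 110, 100.1 and 95.1 CPM in TG 1, TG 2 and TG 3, with the groups apart and a log2 fold change of 0.27 (unadjusted p = 0.0230, adjusted p = 0.217, edgeR). Snrk and Sik2, next by p, were at −0.21 and −0.16 (adjusted p = 0.369 and 0.513, edgeR). Without NTG 3 they were −0.13 and −0.087, and Snrk was −0.14 without TG 3.

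**Figure D5:**
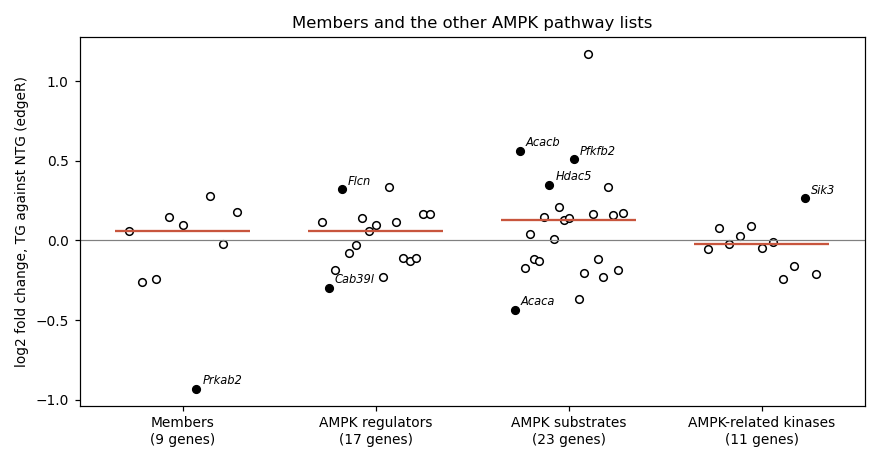
edgeR log2 fold change of TG against NTG for the 9 genes and the genes tested of the 3 pathway lists, where each point is a gene, filled points have an unadjusted p under 0.05 and are named, and red lines are list medians. Prkab2 at −0.93 was the lowest of all points, and the unfilled point at 1.17 is Ppargc1a.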

How the data were processed

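Poly-A RNA of left ventricles, 3 from TG and 3 from NTG animals, was sequenced. The authors cleaned the reads, mapped them, counted reads per gene with featureCounts and deposited raw counts, 1 column per library, without normalization. The submitters' processing notes name HISAT2, DESeq2 and the build GRCh38, a human build, whereas the identifiers are mouse and 98.3% of the genes found in GENCODE M21 (GRCm38), all 9 described here included, had identical positions there, and positions are those of GRCm38. The handling of reads with several matches is not given in the sources used here. All 6 columns were matched to libraries by label. The library protocol names no strand marking.

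The counts were fitted with edgeR 4.0.16 under R 4.3.3 (TMM, filterByExpr by group, robust dispersions, glmQLFit and glmQLFTest) over the 14774 genes kept, with DESeq2 1.42.0 and limma 3.58.1 (voom) as alternatives. Intervals are 95% intervals of edgeR's moderated test. Log2 CPM for patterns has a prior count of 2. Subunit shares were compared with an exact permutation test in SciPy 1.17.1. The fits were tested on simulated counts.

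The genes and lists were chosen with earlier results of these data known, and the lists were written from recalled pathway knowledge. Named genes were the 9, Hint2, 3 genes per list by smallest p and the 3 genes nearest in pattern to the highest of the 9 per length. Alternatives were RLE, upper quartile and library size scaling, no low-count filter, an adjusted p alone, a replicate block, shares without length and each library left out, and, chosen after seeing the data, DESeq2 with each library left out.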

Additional observations from a re-analysis of the deposited data

How the results depend on the processing

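Prkab2 kept its lower level in TG under all 19 alternatives, and edgeR called 0 of the 9 genes under RLE, upper quartile and library size scaling, without the low-count filter, with an adjusted p alone and with the replicate block, while DESeq2 called 1. Leaving out each library gave 0 to 1 of the 9 called, where edgeR called 0 to 836 of all genes and DESeq2 96 to 1773. Prkab2 was the 1 called. With edgeR it was called without NTG 1, beside 836 of 15136 genes (5.52%). With DESeq2 it was called without NTG 1, beside 1773 of 15136 genes, and without TG 2, beside 778 of 15062. Of the 9 genes, 2 had an unadjusted p under 0.05 with library size scaling (Prkaa1 and Prkab2, where 18.7% of all genes did) and 2 with the replicate block (Prkab2 and Prkag1, 21.9%), and 1 to 3 with a library left out (10.4% to 27% of all genes) or 1 to 2 with DESeq2 (9.51% to 25.3%). The number without overlap was 3 under the other scalings and 3 to 6 with a library left out, where 28.5% to 47% of all genes did not overlap. Regulators at that p numbered 1 with DESeq2 (18.3% of all genes) and 1 to 3 with a library left out, substrates 3 to 9 (3 to 8 with DESeq2), the highest without NTG 1, where the share of all genes was also highest, and related kinases 0 with library size scaling, 2 without the filter (12.4%), and 0 to 1 with a library left out. Prkag2 turned positive without NTG 3, TG 2 or TG 3 (0.012, 0.021 and 0.035 with edgeR, 0.020, 0.030 and 0.041 with DESeq2), with −0.12 as the lowest value without a library, and Cab39 negative at −0.029 with library size scaling, which moved the median of all genes to −0.093. The cause was not tested. The deviations of same-numbered libraries correlated at 0.081, 0.173 and −0.252. With 3 libraries a group, these values cannot decide whether the numbers mark pairs. The block gave Prkab2 −0.89 (adjusted p = 0.0531, edgeR) and called 231 of 14774 genes against 0. Prkag1 and Prkab1, at 297 to 502 counts, carry a counting error of 4.93% to 5.56%, and 3 hearts a group limit all values.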
